A study of Saccharomyces cerevisiae with 13 samples.

Results

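The change in gene expression when SMER1 was given together with rapamycin, in place of rapamycin alone, was measured in budding yeast. It rests on 4 of the 13 arrays of the study: the 2 arrays of cells given SMER1 and rapamycin, and the 2 arrays of cells given rapamycin. All 5498 probe sets with 1 gene name were taken, of 5716 on the array, and they stood for 5449 genes. SMERs are small molecule enhancers of rapamycin, known by code names, and the study compared them with the solvent and with rapamycin.

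Every culture was Saccharomyces cerevisiae BY4741, a haploid laboratory strain of mating type a, grown at 30 °C to mid-log phase in the rich medium YPD and treated for 30 min. The SMER1 + rapamycin group received 20 µM SMER1 and 100 nM rapamycin (2 arrays), and its comparison group received 100 nM rapamycin (2 arrays). Set beside them were 20 µM SMER1 alone (2 arrays) and the solvent DMSO (3 arrays). BY4741 lacks working HIS3, LEU2, MET17 and URA3, so all groups shared these lesions, and the lack of Met17 leaves the strain dependent on a supplied sulfur amino acid. Replicates are numbered in the labels, which do not call them separate cultures, so the p-values measure only the spread between these arrays.

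Rapamycin binds the protein Fpr1, and the pair inhibits TOR complex 1, the kinase complex through which yeast matches growth to nutrients. When TOR complex 1 is inhibited, genes for using poor nitrogen sources are switched on, and genes for making ribosomes are switched off. Stress and carbohydrate storage genes rise with it, through kinases and transcription factors that TOR complex 1 holds back.

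Values are log2 signal, differences are log2 differences (SMER1 + rapamycin minus rapamycin unless stated), and ± gives limma's standard error of that difference. Genes were called at an adjusted p under 0.05, by the Benjamini-Hochberg method over all 5449 of them. The 2 SMER1 + rapamycin arrays correlated with each other at 0.992 across genes and the 2 rapamycin arrays at 0.988, while pairs of arrays from different groups lay between 0.932 and 0.949. Array medians lay between 10.99 and 11.07 over all 13 arrays. The labelled strain was checked on its markers. The a-cell pheromone gene MFA2 read 13.93 and 13.89 with SMER1 + rapamycin and 13.76 and 13.80 with rapamycin, while the alpha-cell pheromone gene MF(ALPHA)1 read 4.46 and 4.54, against 4.26 and 3.60. Not every alpha-cell gene was that dim. The median of the 4 measured was 6.43 and 7.57 with SMER1 + rapamycin, against 6.98 and 7.26. The median of the 7 a-cell genes was 11.70 and 12.01, against 12.13 and 12.33. URA3 read 1.97 and 3.21 with SMER1 + rapamycin, against 3.18 and 4.31, and MET17 read 4.27 and 5.17, against 4.84 and 4.56. LEU2 lay near 8 on all 4 arrays and HIS3, whose deletion is partial, above 12, so neither was at the bottom of the scale.

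Adding SMER1 to rapamycin changed 2527 of 5449 genes (46.4%): 988 rose (18.1%) and 1539 fell (28.2%). At least 2-fold rises numbered 217 (3.98%) and at least 2-fold falls 227 (4.17%). The median difference of all genes was −0.08, and the 5th and 95th percentiles were −0.96 and 0.91. Stress, storage carbohydrate and sulfate genes were mostly higher. Genes of ribosome assembly, DNA replication, sterols, purines and allantoin use were mostly lower. The bar chart of the lists gives the share of each list that was called in either direction.

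**Figure D1:**
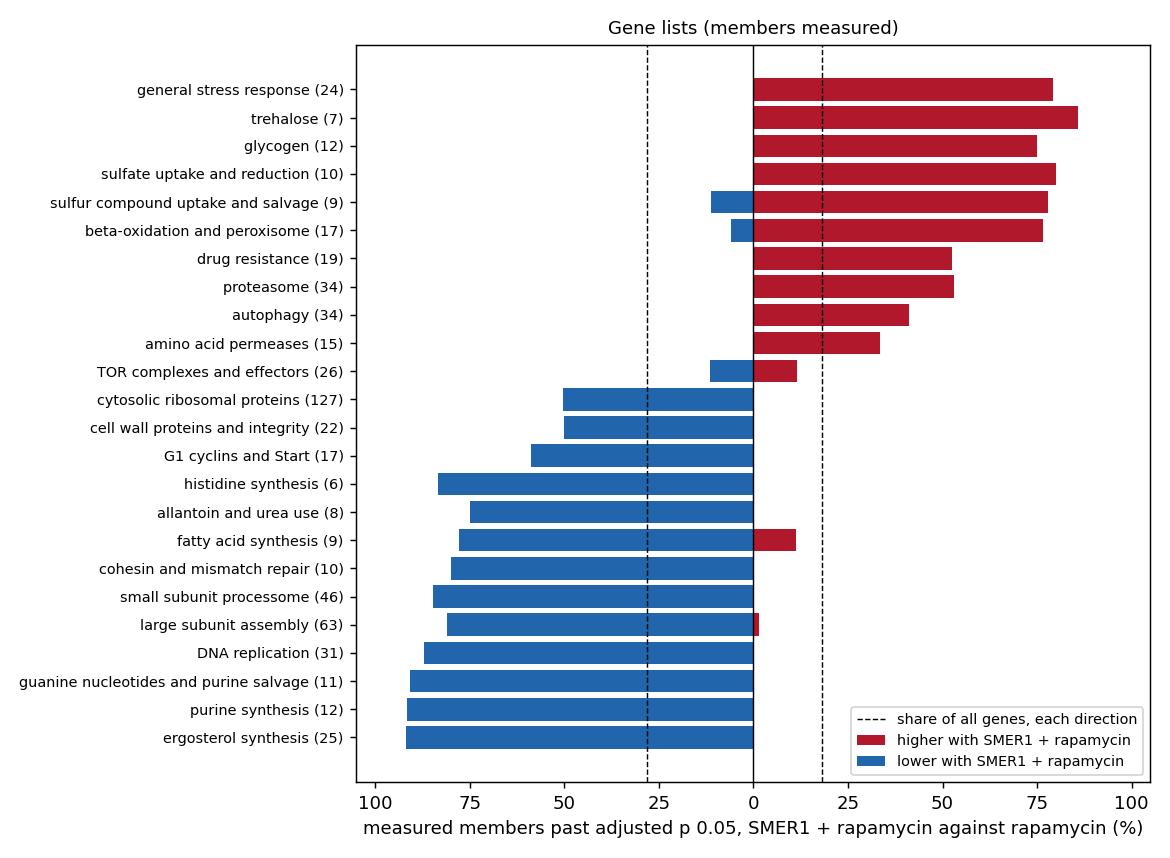
Share of each gene list's measured members (number in brackets) that was called higher (red, to the right) or lower (blue, to the left) with SMER1 + rapamycin than with rapamycin, in percent. Dashed lines mark the shares of all genes, 18.1% higher and 28.2% lower; the bars of general stress, trehalose and sulfate genes pass the line on the right, and those of ergosterol, purine and DNA replication genes pass the line on the left.

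The 15 largest rises ran from 3.27 to 5.28 and included genes of several functions. YER053C-A, a short open reading frame without a known function, read 12.05 and 12.15 with SMER1 + rapamycin, against 6.97 and 6.67 with rapamycin, a rise of 5.28 ± 0.21 (38.9-fold, adjusted p = 1.31e-05). HSP30, a plasma membrane protein that restrains the proton pump Pma1 under stress, read 12.41 and 12.96 with SMER1 + rapamycin, against 8.04 and 8.50 with rapamycin, and rose by 4.41 ± 0.49 (adjusted p = 0.00048). The pairs of arrays did not overlap for either gene, and the same held for all 15 of the largest rises, as the rule for naming them required. HXT5, the hexose transporter made at low growth rates, read 12.45 and 12.79, against 8.64 and 8.92 with rapamycin, and rose by 3.84 ± 0.19 (14.3-fold, adjusted p = 3.25e-05). GIP2, a putative regulatory subunit of the phosphatase Glc7, read 10.97 and 11.15, against 7.46 and 7.09, and rose by 3.78 ± 0.35. SPG4, needed for survival in stationary phase, read 13.05 and 12.99, against 9.51 and 9.97, and rose by 3.28 ± 0.34. For each of these 3 genes both SMER1 + rapamycin arrays lay more than 2 log2 units above both rapamycin arrays. PHM7 (4.21), the sporulation gene SPS100 (4.09), YHR033W (3.52), YHL048C-A (3.50), UTR5 (3.42), the desiccation-induced SIP18 (3.38), the aldehyde dehydrogenase gene ALD3 (3.36) and the membrane protein gene YNL194C (3.28) belonged to the same set, as did PDC5, described next. YKL096C-B (3.27 ± 0.79) completed it, but its rapamycin arrays read 4.63 and 1.82, near the bottom of the scale, and without SMER1 + rapamycin replicate 1 its adjusted p was 0.061.

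The pyruvate decarboxylases, which turn pyruvate into acetaldehyde on the way to ethanol, differed among themselves. PDC5, a minor isozyme, read 14.49 and 14.42 with SMER1 + rapamycin, against 10.06 and 10.39 with rapamycin, a rise of 4.23 ± 0.22 (18.8-fold, adjusted p = 3.42e-05). PDC6, the other minor isozyme, read 13.13 and 13.38, against 10.98 and 10.96, and rose by 2.29 ± 0.19 (4.88-fold, adjusted p = 0.000166). PDC1, the major isozyme, read 14.42 and 14.41, against 14.40 and 14.32, a difference of 0.06 ± 0.09 (adjusted p = 0.652), near the top of the scale. Rapamycin alone left PDC5 at 0.16 below DMSO, a difference of −0.16 that did not pass the test (adjusted p = 0.51), while SMER1 alone raised it by 3.96. Thiamine supplies the cofactor of these enzymes, and THI4, of thiamine synthesis, read 11.07 and 11.29, against 9.07 and 9.22, and rose by 2.03 ± 0.23. Of 15 measured thiamine and vitamin B6 genes 5 rose and 4 fell, against 18.1% of all genes higher and 28.2% lower. Fewer rises were called without SMER1 + rapamycin replicate 2 or without rapamycin replicate 2. The 4 that fell were the vitamin B6 genes SNZ1 (−0.96), SNO1 (−0.75), SNO3 (−0.68) and SNZ3 (−0.44). The last 2 were read by probe sets shared with similar genes. The call of SNO1 was lost without the first SMER1 + rapamycin array or the first rapamycin array (adjusted p = 0.134 and 0.127).

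The largest falls were spread over several functions. HO, the endonuclease of mating-type switching that is transcribed in late G1 phase, read 8.52 and 8.27 with SMER1 + rapamycin, against 11.60 and 11.65 with rapamycin, a difference of −3.23 ± 0.17 (9.38-fold lower, adjusted p = 3.55e-05). YPS3, a protease anchored at the cell surface, read 8.06 and 8.12, against 10.96 and 11.31 (−3.05 ± 0.20). HES1, a member of the oxysterol-binding protein family, read 7.48 and 7.16, against 9.80 and 9.53 (−2.34 ± 0.22). In all 3 the SMER1 + rapamycin arrays were well below both rapamycin arrays. The rest were the allantoin genes DAL1 and DAL4 and RNR1, described below, IZH4 (−2.22), the riboflavin transporter gene MCH5 (−2.21), the wall protein gene TOS6 (−2.16), INA1 (−2.10), CYB5 (−2.09), GCV2 (−2.06), the phospholipase gene PLB2 (−2.04), the adenine deaminase gene AAH1 (−2.01) and the meiotic gene SPO16 (−1.97).

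**Figure D2:**
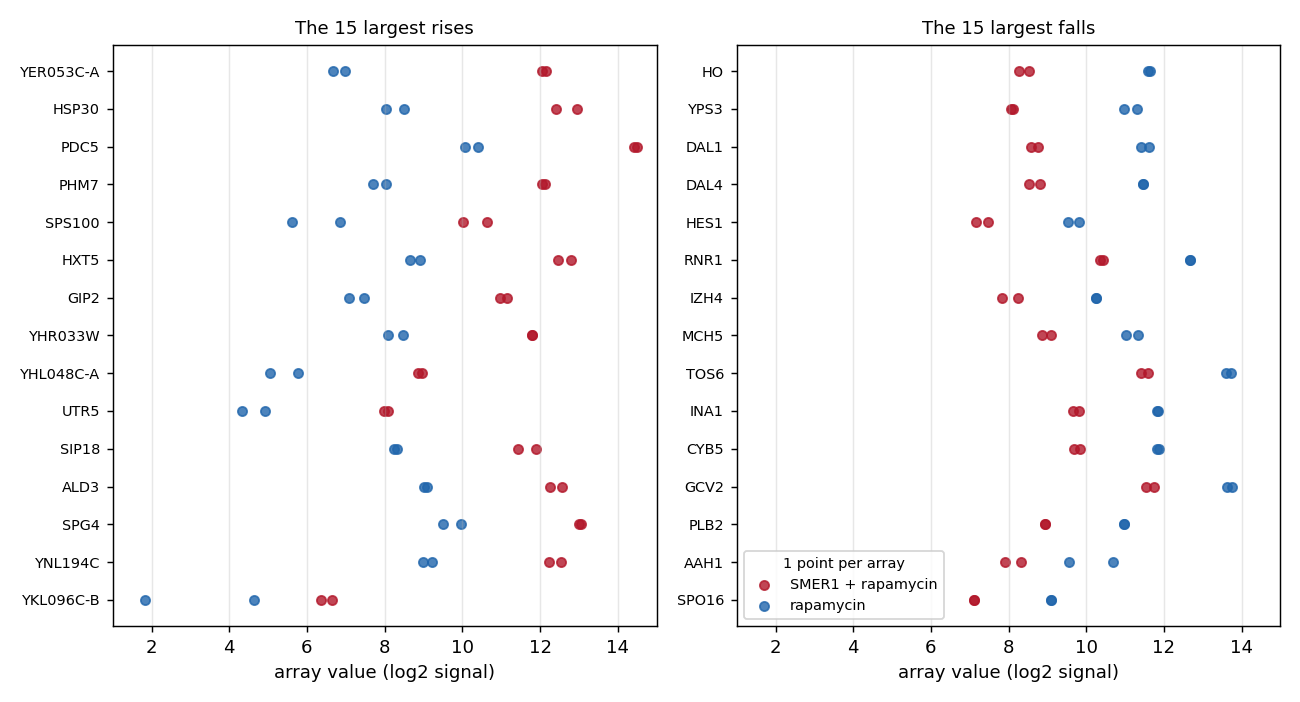
Log2 signal of the 15 genes that rose most (left) and the 15 that fell most (right) on each of the 2 SMER1 + rapamycin arrays (red) and 2 rapamycin arrays (blue). The arrays of a group lie close together for most genes and the groups do not overlap, which the choice of these genes required; the rapamycin arrays of YKL096C-B, at 4.63 and 1.82, are the farthest apart.

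Allantoin, a purine breakdown product, is a poor nitrogen source, and the DAL genes that import and degrade it are repressed in rich medium by the TOR pathway. Of 8 measured allantoin and urea genes 6 fell and none rose, with a median of −1.46. DAL1, allantoinase, read 8.76 and 8.59 with SMER1 + rapamycin, against 11.42 and 11.61 with rapamycin (−2.84 ± 0.17, 7.18-fold lower, adjusted p = 5.15e-05). DAL4, the allantoin permease, read 8.82 and 8.52, against 11.46 and 11.46 (−2.79 ± 0.13, 6.90-fold lower, adjusted p = 2.17e-05). Both lay between the rapamycin arrays and those without rapamycin, since DAL1 read 6.17 and 6.18 with SMER1 alone and 6.27, 5.86 and 5.74 with DMSO. The allantoicase gene DAL2 fell by 1.75 ± 0.13, the malate synthase gene DAL7 by 1.57 ± 0.12, DCG1 by 1.34 ± 0.07 and the allantoate permease gene DAL5 by 1.15 ± 0.15. DAL3, ureidoglycolate lyase, read 12.59 and 12.36, against 13.11 and 12.96 (−0.56 ± 0.40, adjusted p = 0.288), and DUR3, the urea transporter, differed by −0.28 ± 0.17 (adjusted p = 0.219).

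Several permease genes under nitrogen catabolite repression were not among those that fell. MEP2, the high-affinity ammonium permease, read 13.96 and 13.82 with SMER1 + rapamycin, against 14.15 and 14.09 with rapamycin (−0.23 ± 0.11, adjusted p = 0.122). GAP1, the general amino acid permease, read 13.84 and 13.87, against 13.98 and 13.93 (−0.10 ± 0.10, adjusted p = 0.435). CAN1, the arginine permease, differed by −0.21 ± 0.13 (adjusted p = 0.23), and AGP1, a broad amino acid permease, by −0.10 ± 0.16 (adjusted p = 0.652). These 4 genes read 13.24 or more on each of the 4 arrays, close to the highest value in the study, 14.67. PUT4, the proline permease, read 12.87 and 12.97, against 11.96 and 12.08, and rose by 0.90 ± 0.12 (adjusted p = 0.000906).

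Of the 9 proline and GABA genes 4 rose and 4 fell. The glutamate decarboxylase gene GAD1 rose by 1.02 ± 0.12, the regulator gene PUT3 by 0.55 ± 0.10 and the dehydrogenase gene UGA2 by 0.43 ± 0.08. UGA4, the GABA permease, read 11.03 and 11.19, against 12.44 and 12.69, and fell by 1.45 ± 0.17 (adjusted p = 0.000612), and its activator gene UGA3 fell by 1.06 ± 0.10. UGA1 and PUT2 each fell by 0.38, although PUT2 was not called without SMER1 + rapamycin replicate 1 or rapamycin replicate 2 (adjusted p = 0.0554 and 0.0582). Of 5 glutamate and glutamine enzymes 3 fell, with the largest differences in the dehydrogenase gene GDH3 (−1.40 ± 0.12) and the glutamate synthase gene GLT1 (−1.22 ± 0.19), while GLN1 and GDH1 each differed by −0.01.

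Among the GATA factors, which switch these genes on and off, the activators GLN3 (−0.34 ± 0.16) and GAT1 (0.30 ± 0.13) did not pass the test, with adjusted p of 0.113 and 0.085. The repressor gene DAL80 read 12 and 11.66 with SMER1 + rapamycin, against 12.82 and 12.63 with rapamycin, and fell by 0.89 ± 0.27 (adjusted p = 0.0285). That call was lost on leaving out any 1 of these 4 arrays, with adjusted p of 0.0519 and 0.144 without the first and second SMER1 + rapamycin array and 0.114 and 0.0718 without the first and second rapamycin array. GZF3, a further repressor, rose by 0.28 ± 0.09, and its call too was lost on leaving out any 1 of the 4 arrays (adjusted p from 0.0817 to 0.156).

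Permeases for branched-chain amino acids were among the 5 of 15 amino acid permease genes that rose, and none of the 15 fell. BAP2 read 12.30 and 12.60 with SMER1 + rapamycin, against 10.21 and 10.51 with rapamycin, and rose by 2.09 ± 0.13 (4.26-fold, adjusted p = 5.66e-05). Its paralog BAP3 read 12.22 and 12.48, against 11.12 and 11.33, and rose by 1.13 ± 0.12. For BAP2 the level with SMER1 + rapamycin overlapped that of DMSO, at 12.41, 12.48 and 12.44, and that of SMER1 alone was 12.86 and 12.98. ALP1, an arginine transporter, rose by 1.02 ± 0.10. Without SMER1 + rapamycin replicate 2, 3 of the 15 were called.

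**Figure D3:**
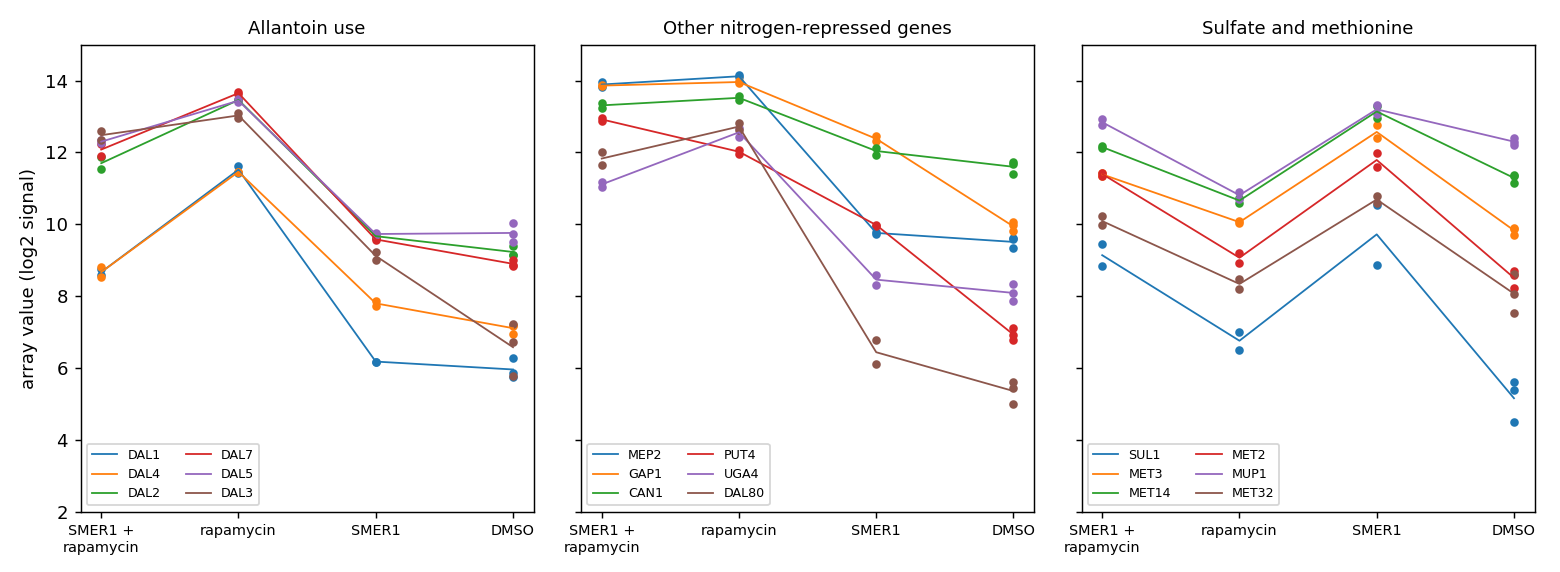
Log2 signal by array (points) and group means (lines, joined only to follow a gene) for allantoin genes, other nitrogen-repressed genes, and sulfate and methionine genes with SMER1 + rapamycin, rapamycin, SMER1 and DMSO. DAL1 and DAL4 are lower with SMER1 + rapamycin than with rapamycin (−2.84 and −2.79) while MEP2 and GAP1 stay near 14, and MUP1 and MET14 are lowest with rapamycin.

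Sulfate is taken up and reduced to sulfide, which enters homocysteine, methionine and cysteine. The genes of this route are activated by Met4 with its DNA-binding partners. Of 10 genes of sulfate uptake and reduction 8 rose and none fell, with a median of 0.88. SUL2, a sulfate permease, read 10.63 and 10.77 with SMER1 + rapamycin, against 9.52 and 9.40 with rapamycin, and rose by 1.24 ± 0.14 (adjusted p = 0.000519). MET14, adenylylsulfate kinase, read 12.12 and 12.18, against 10.72 and 10.60, and rose by 1.49 ± 0.13 (2.81-fold, adjusted p = 0.00017). MET3, ATP sulfurylase, rose by 1.32 ± 0.12, and the sulfite reductase genes MET5 and MET10 by 0.95 ± 0.12 and 0.69 ± 0.12. In each of these the groups did not overlap. The other sulfate permease gene, SUL1, read 8.83 and 9.46, against 7.01 and 6.51 (2.38 ± 0.57, adjusted p = 0.0124), but was not called without SMER1 + rapamycin replicate 2 or without rapamycin replicate 2 (adjusted p = 0.0737 and 0.0692). MET22 stood at 12.76 and 12.74, against 12.73 and 12.76, a difference of 0.00 ± 0.07.

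Transport and salvage of sulfur compounds moved with it, since 7 of 9 genes rose and 1 fell, with a median of 1.26. MUP1, the high-affinity methionine permease, read 12.76 and 12.92, against 10.71 and 10.91 with rapamycin, and rose by 2.03 ± 0.12 (adjusted p = 5.15e-05). MHT1, a homocysteine methyltransferase of S-methylmethionine salvage, rose by 2.07 ± 0.17, the low-affinity methionine permease gene MUP3 by 2.01 ± 0.24, the cysteine transporter gene YCT1 by 1.93 ± 0.18 and the S-methylmethionine permease gene MMP1 by 1.26 ± 0.17. SAM4, the other homocysteine methyltransferase, fell by 0.28 ± 0.08, a call lost without either SMER1 + rapamycin array or rapamycin replicate 2 (adjusted p from 0.0729 to 0.115).

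The core of methionine and cysteine synthesis did not move as a group: of 15 genes 3 rose and 4 fell, with a median of 0.06. MET2, which acetylates homoserine, read 11.35 and 11.44, against 9.20 and 8.93 with rapamycin, and rose by 2.33 ± 0.19 (5.02-fold, adjusted p = 0.000148). STR3, which makes homocysteine from cystathionine, read 10.57 and 11.20, against 8.68 and 8.69, and rose by 2.20 ± 0.33. The aspartate kinase gene HOM3 fell by 0.60 ± 0.13, SAH1 by 0.53 ± 0.13, MET7 by 0.40 ± 0.08 and STR2 by 0.32 ± 0.09, while the methionine synthase gene MET6 differed by 0.09 ± 0.11 (adjusted p = 0.529). Of these falls, SAH1 was not called without SMER1 + rapamycin replicate 1 or rapamycin replicate 2 (adjusted p = 0.0673 and 0.0742), nor STR2 without any 1 of the 4 arrays (0.0645 to 0.11). Of the regulators, MET32, a DNA-binding partner of Met4, read 10.22 and 9.97, against 8.49 and 8.19, and rose by 1.76 ± 0.31. MET28, another partner, rose by 1.08 ± 0.23, with an adjusted p of 0.0512 without SMER1 + rapamycin replicate 2. MET4 itself differed by −0.24 ± 0.12 (adjusted p = 0.137), MET31 by −0.20 ± 0.11 (adjusted p = 0.185) and MET30, the F-box protein that restrains Met4, by −0.03 ± 0.13 (adjusted p = 0.892).

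The small subunit processome assembles on the nascent ribosomal RNA in the nucleolus. Of its 46 measured members 39 fell and none rose, with a median of −0.88. RRP36 read 6.29 and 6.52 with SMER1 + rapamycin, against 7.45 and 8.08 with rapamycin (−1.36 ± 0.19, adjusted p = 0.00139), and RCL1 read 8.86 and 9.20, against 10.04 and 10.71 (−1.35 ± 0.25). Without SMER1 + rapamycin replicate 1, 25 of the 46 were called lower, and without rapamycin replicate 2, 1 was called higher. Of 63 factors of large subunit assembly 51 fell and 1 rose, with a median of −0.85. RIX1 read 7.77 and 7.94, against 9.02 and 9.84 (−1.57 ± 0.24, adjusted p = 0.00202), and RPF1 read 8.84 and 8.86, against 10.10 and 10.44 (−1.42 ± 0.12, adjusted p = 0.00017). All 8 core proteins of the small nucleolar RNA particles fell, from NOP56 (−0.52 ± 0.08) to SNU13 (−1.09 ± 0.12).

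A few assembly factors of both lists were not below 0. REA1, the giant ATPase that remodels the pre-60S particle, read 11.62 and 11.34, against 11.04 and 10.68, and was the 1 member that rose (0.62 ± 0.18, adjusted p = 0.0238), a call lost without SMER1 + rapamycin replicate 1 or rapamycin replicate 2 (adjusted p = 0.131 and 0.136). RRP5 differed by 0.50 ± 0.18 (adjusted p = 0.0514) and UTP20 by 0.11 ± 0.16 (adjusted p = 0.579), and RSA1 was the other gene above 0 (0.07). In the RefSeq gene table REA1, RRP5 and UTP20 have gene lengths (introns included) of 14733, 5190 and 7482 bp, while RSA1 has 1146 bp. Among the genes that fell, RRP36 has 903 bp, RPF1 888 bp and RIX1 2292 bp. UTP10, of 5310 bp, differed by −0.50 ± 0.24 (adjusted p = 0.126). Across the 46 processome genes the Spearman correlation of gene length with the difference was 0.45. It was 0.17 across the 63 large subunit genes and −0.03 across all 5449 genes. For rapamycin minus DMSO, which uses the same rapamycin arrays, the values in this order were −0.49, −0.32 and −0.08. For SMER1 minus DMSO they were −0.32, −0.32 and −0.08. Genes share arrays, so the correlations describe these arrays only.

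**Figure D4:**
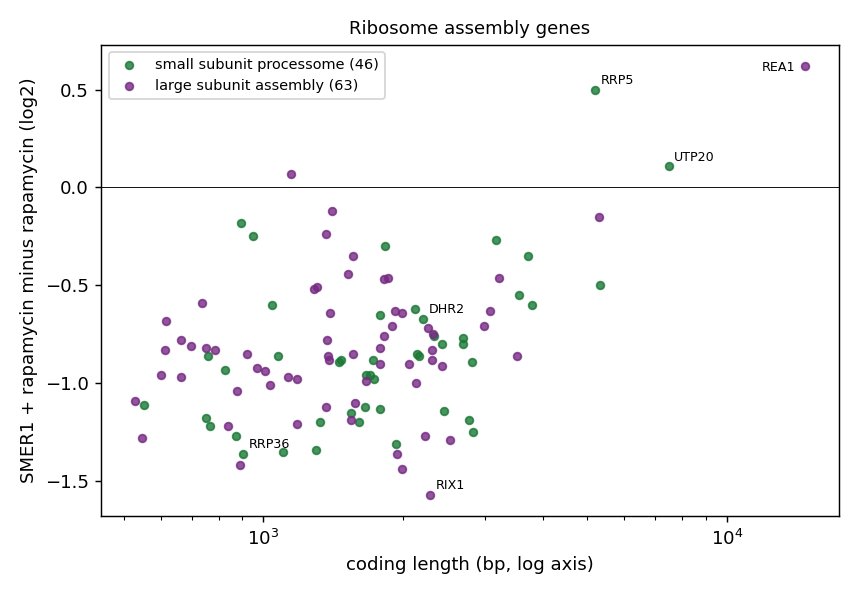
Log2 difference, SMER1 + rapamycin minus rapamycin, against gene length (bp, log axis, labelled coding length) for 46 small subunit processome genes (green) and 63 large subunit assembly genes (purple). Most points lie below 0; the 4 above it are REA1, UTP20, RRP5 and RSA1, at 14733, 7482, 5190 and 1146 bp.

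RNA polymerase I transcribes the ribosomal RNA. Of 15 of its subunit and factor genes 8 fell and 2 rose. RPA12 read 9.18 and 9.39, against 10.19 and 10.53 (−1.08 ± 0.13, adjusted p = 0.000633). The large subunit gene RPA190 read 10.44 and 10.45, against 9.78 and 10.21, a rise of 0.45 ± 0.13 (adjusted p = 0.0272) whose call was lost without either SMER1 + rapamycin array or without rapamycin replicate 1 (adjusted p between 0.095 and 0.101), and RRN5 rose by 0.55 ± 0.09. Without rapamycin replicate 2, 5 of the 15 were called lower. Of 21 genes of RNA polymerase III, which transcribes transfer RNA and 5S RNA, 11 fell, led by RPC25, at 8.57 and 8.57 against 10.17 and 10.32 (−1.68 ± 0.08, adjusted p = 3.12e-05). Leaving out either SMER1 + rapamycin array left 7 of the 21, and leaving out rapamycin replicate 2 left 6.

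Ribosomal protein genes changed less. Of 127 measured 64 fell and none rose, against 28.2% of all genes lower and 18.1% higher. Their median was −0.29, and the differences ran from −0.99 (RPS0A) to 0.07 (RPL41A). RPS0A read 12.62 and 12.37 with SMER1 + rapamycin, against 13.51 and 13.46 with rapamycin (−0.99 ± 0.15, adjusted p = 0.00177). After quantile normalization 92 of the 127 were lower, when 1415 of all 5449 genes were. Fewer of the 127 were called without SMER1 + rapamycin replicate 2 or without rapamycin replicate 1. Fewer of all genes were called lower then too, and the share of ribosomal protein genes came closer to that of all genes. Of the 127 ribosomal protein genes 26 were read by probe sets shared with a similar transcript, mostly the paralog. IFH1, the coactivator of ribosomal protein genes, read 9.51 and 9.76, against 10.78 and 11.04, and fell by 1.28 ± 0.13 (2.42-fold, adjusted p = 0.000306), and its partner FHL1 fell by 0.76 ± 0.13. RAP1 fell by 0.41 ± 0.07, while SFP1 differed by −0.19 ± 0.11 (adjusted p = 0.19), and STB3, a repressor that binds ribosome assembly genes, rose by 0.37 ± 0.09. The call of STB3 was lost without SMER1 + rapamycin replicate 2 or rapamycin replicate 2 (adjusted p = 0.0915 and 0.0806).

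The TOR complexes themselves showed little movement: of 26 genes of the complexes and their effectors 3 rose and 3 fell, with a median of 0.00. KOG1, the Raptor homolog of TOR complex 1, read 10.84 and 10.73, against 11.32 and 11.12, and fell by 0.44 ± 0.10, and TCO89, a further subunit, fell by 0.27 ± 0.09. PPH3, a phosphatase catalytic subunit, fell by 0.65 ± 0.13, while AVO2, of TOR complex 2, rose by 0.63 ± 0.09 and the phosphatase activator gene RRD2 by 0.54 ± 0.13. Only 1 rise was called without SMER1 + rapamycin replicate 1 or rapamycin replicate 2, and only 1 fall without SMER1 + rapamycin replicate 2 or rapamycin replicate 1. KOG1 had adjusted p of 0.076 and 0.0687 without these last 2 arrays, RRD2 of 0.0834 and 0.0708 without the other pair, and TCO89 of 0.112 to 0.158 without any 1 of the 4.

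The G1 cyclins and the factors SBF and MBF start the cycle and switch on the genes of DNA synthesis. Of 17 genes of G1 and Start 10 fell and none rose, with a median of −0.75. CLN2, a G1 cyclin, read 10.12 and 10.14 with SMER1 + rapamycin, against 11.70 and 11.99 with rapamycin (−1.72 ± 0.11, 3.29-fold lower, adjusted p = 6.32e-05). CLB6, an S phase cyclin, read 8.51 and 8.49, against 10.14 and 10.14 (−1.64 ± 0.09). CLN3, the cyclin upstream of these, had the highest difference of the list, 0.35, and without rapamycin replicate 2, 1 of the 17 was called higher.

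Of 31 DNA replication genes 27 fell and none rose, with a median of −0.63. POL30, the sliding clamp, read 10.87 and 10.80, against 12.67 and 12.73 (−1.86 ± 0.09, 3.64-fold lower, adjusted p = 2.66e-05). POL12 and POL1, of the primase complex, fell by 1.84 ± 0.16 and 1.80 ± 0.17. RNR1, the large subunit of ribonucleotide reductase, read 10.44 and 10.36, against 12.67 and 12.67 (−2.27 ± 0.09, 4.83-fold lower, adjusted p = 1.11e-05). The small subunit genes moved less, RNR4 falling by 0.29 ± 0.08 and RNR2 differing by −0.17 ± 0.08 (adjusted p = 0.108), and RNR3, which DNA damage induces, differed by 0.04 ± 0.10. RNR4 was not called without any 1 of the 4 arrays (adjusted p from 0.0565 to 0.0904). Of 10 cohesin and mismatch repair genes 8 fell, among them MSH6 (−1.72 ± 0.09), which binds mismatched bases, the cohesin subunit genes MCD1 (−1.69 ± 0.22) and SMC3 (−1.59 ± 0.25), and PDS5 (−1.65 ± 0.20).

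Histones and mitotic genes followed with smaller differences. Of 9 histone genes 6 fell, HTB2 most, at 12.67 and 12.57 against 13.60 and 13.47 (−0.91 ± 0.10). Of 20 G2/M genes 10 fell, led by the forkhead factor gene FKH1 (−1.17 ± 0.13) and the kinase gene SWE1 (−0.72 ± 0.08). The G2/M count was 6 without SMER1 + rapamycin replicate 2 or without rapamycin replicate 2. Set against DMSO, rapamycin alone gave differences of −0.03 for POL30, −0.05 for RNR1 and −0.04 for MSH6, none of which passed the test, and CLN2 rose by 0.36. Those values use the same rapamycin arrays.

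Of 24 genes of the general stress response, driven by Msn2 and Msn4, 19 rose and none fell, with a median of 1.40. ALD3 read 12.26 and 12.56 with SMER1 + rapamycin, against 9.02 and 9.08 with rapamycin (3.36 ± 0.20, 10.3-fold, adjusted p = 4.83e-05). RGI1, a regulator of energy metabolism, read 13.98 and 13.92, against 11.34 and 11.02 (2.77 ± 0.12), and CTT1, the cytosolic catalase, read 12.96 and 13.19, against 10.65 and 11.06 (2.22 ± 0.20). The groups did not overlap for these 3 genes. Of 7 trehalose genes 6 rose, including the phosphatase gene TPS2 (1.20 ± 0.08), the vacuolar trehalase gene ATH1 (1.11 ± 0.12) and the synthase gene TPS1 (0.44 ± 0.07). Of 12 glycogen genes 9 rose and none fell, with a median of 0.91, and both synthesis and breakdown were among them: the synthase gene GSY1 rose by 1.23 ± 0.11 and the phosphorylase gene GPH1 by 1.12 ± 0.09. The phosphatase-targeting subunit GAC1, at 9.01 and 9.51 against 6.33 and 5.97, rose by 3.11 ± 0.50.

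Of 31 chaperone and heat shock genes 16 rose and 3 fell, with a median of 0.25. HSP31, a methylglyoxalase, read 14.05 and 13.91, against 11.79 and 11.95 (2.11 ± 0.08, 4.32-fold, adjusted p = 1.11e-05), and the stress-induced HSP70 gene SSA4 rose by 1.37 ± 0.18. The ribosome-bound SSB2 fell by 0.38 ± 0.10 and the J-protein gene YDJ1 by 0.40 ± 0.14, calls that leaving out any 1 of the 4 arrays ended (adjusted p from 0.0585 to 0.0843 and from 0.0829 to 0.205). Without SMER1 + rapamycin replicate 1, or without rapamycin replicate 2, 10 of the 31 rose and none fell. Of 16 stress and quiescence regulators 7 rose, including GIS1 (1.16 ± 0.12), which acts in stationary phase, and the kinase gene YAK1 (0.98 ± 0.09).

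Genes of drug export and of the glutathione system were in part higher. PDR12, which exports weak organic acids, read 12.83 and 13.20, against 10.84 and 11.01 (2.09 ± 0.20, 4.27-fold, adjusted p = 0.000257), and 10 of 19 drug resistance genes rose and none fell. GTT2, a glutathione transferase, read 12.24 and 12.19, against 9.34 and 9.12 (2.99 ± 0.21, 7.92-fold, adjusted p = 8.75e-05). OYE3, an old yellow enzyme, rose by 2.78, and GSH1, the first enzyme of glutathione synthesis, by 1.21 ± 0.10. Of 17 glutathione genes 9 rose and 1 fell (GRX3, −0.43 ± 0.09), and that fall was not called without SMER1 + rapamycin replicate 2 or rapamycin replicate 1 (adjusted p = 0.0563 and 0.0511).

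Of 25 genes of ergosterol synthesis, which makes the yeast membrane sterol, 23 fell and none rose, with a median of −0.59. CYB5, cytochrome b5, which passes electrons to sterol and fatty acid enzymes, read 9.85 and 9.68 with SMER1 + rapamycin, against 11.83 and 11.88 with rapamycin (−2.09 ± 0.10, 4.26-fold lower, adjusted p = 3.14e-05). ERG3, the C-5 desaturase, read 11.48 and 11.38, against 13.14 and 13.02 (−1.65 ± 0.10), and ERG5, the C-22 desaturase, read 10.97 and 10.94, against 12.33 and 12.46 (−1.44 ± 0.09). ERG1, squalene epoxidase, fell by 1.19 ± 0.17 and MVD1, of the mevalonate pathway, by 1.13 ± 0.11. The sterol regulator gene UPC2 differed by −0.38 ± 0.20 (adjusted p = 0.156), and ECM22, its paralog, rose by 0.49 ± 0.15 (adjusted p = 0.0298), a call lost without either SMER1 + rapamycin array or rapamycin replicate 2 (adjusted p from 0.0724 to 0.162).

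Of 9 fatty acid synthesis genes 7 fell and 1 rose. OLE1, the only fatty acid desaturase of yeast, read 11.60 and 11.91, against 13.62 and 13.58 (−1.85 ± 0.18, 3.59-fold lower, adjusted p = 0.000266), and the elongase gene ELO3 read 11.27 and 11.14, against 12.71 and 12.65 (−1.48 ± 0.10). FAA1, an acyl-CoA synthetase, rose by 0.39 ± 0.06, and FAA4, another, fell by 0.89 ± 0.09. Breakdown went the other way: of 17 genes of beta-oxidation and the peroxisome 13 rose and 1 fell. The thiolase gene POT1 read 9.17 and 9.66, against 6.78 and 7.35, and rose by 2.35 ± 0.34, and PXA1, of peroxisomal fatty acid import, rose by 1.16 ± 0.07. PEX11, which drives peroxisome division, fell by 0.66 ± 0.07. The count of 13 became 8 and 5 without the first and second SMER1 + rapamycin array and 7 without rapamycin replicate 2.

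Of 12 purine synthesis genes 11 fell and none rose, with a median of −0.85. ADE17, of the last steps of the pathway, read 11.22 and 11.22 with SMER1 + rapamycin, against 12.92 and 12.75 with rapamycin (−1.62 ± 0.10, 3.07-fold lower, adjusted p = 5.15e-05), while its paralog ADE16 read 13.13 and 13.07, against 13.17 and 13.07 (−0.02 ± 0.10, adjusted p = 0.876). BAS1, the activator of the pathway, fell by 0.98 ± 0.14. Of 11 guanine nucleotide and salvage genes 10 fell. HPT1, the hypoxanthine and guanine phosphoribosyltransferase, read 10 and 10.06, against 11.39 and 11.78 (−1.56 ± 0.13), and AAH1, which deaminates adenine, read 7.91 and 8.31, against 9.55 and 10.68 (−2.01 ± 0.36, adjusted p = 0.00376).

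The glycine decarboxylase complex feeds one-carbon units into purines and thymidylate. GCV2 read 11.74 and 11.53 with SMER1 + rapamycin, against 13.76 and 13.63 with rapamycin (−2.06 ± 0.12, 4.16-fold lower, adjusted p = 5.15e-05). GCV1 read 11.19 and 10.99, against 12.83 and 12.78 (−1.72 ± 0.09), and GCV3 fell by 0.86 ± 0.13. SHM2, the cytosolic serine hydroxymethyltransferase, fell by 1.03 ± 0.09, and SHM1, the mitochondrial one, by 0.83 ± 0.13. The serine synthesis genes SER3 and SER33 rose by 0.52 ± 0.12 and 0.44 ± 0.08, although SER3 was not called without the second SMER1 + rapamycin array or the second rapamycin array (adjusted p = 0.0552 and 0.0514). Of 13 arginine genes 8 fell and 1 rose, with ARG1, argininosuccinate synthetase, at 11.88 and 11.70 against 13.23 and 13.25 (−1.45 ± 0.13, adjusted p = 0.000197). The riser was ARG82 (0.75 ± 0.10), an inositol polyphosphate kinase. Of 6 histidine synthesis genes 5 fell, HIS7 by 0.96 ± 0.10 and HIS4 by 0.93 ± 0.09.

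Of 13 zinc genes 6 rose and 4 fell, against 18.1% of all genes higher and 28.2% lower. The activator gene ZAP1 rose by 0.81 ± 0.10, and ZRT1 and ZRT2, which import zinc, rose by 0.95 ± 0.15 and 1.25 ± 0.08. ZRT2 read 12 and 12.14, against 10.79 and 10.84 with rapamycin. IZH4, IZH1 and IZH2, of a membrane receptor family linked to zinc, fell by 2.22 ± 0.15, 1.41 ± 0.25 and 0.98 ± 0.13, and the low-affinity iron and zinc transporter gene FET4 read 10.16 and 10.12, against 11.89 and 11.66 (−1.64 ± 0.12). Of 26 iron genes 7 rose and 2 fell, with a median of 0.09. LSO1 rose by 3.18 ± 0.45 and MRS4, which carries iron into mitochondria, by 1.68 ± 0.12. The high-affinity uptake pair FET3 and FTR1 fell by 0.45 ± 0.12 and 0.38 ± 0.08. Without SMER1 + rapamycin replicate 2, 4 of the 26 rose. FET3 was not called without either SMER1 + rapamycin array or rapamycin replicate 1 (adjusted p from 0.056 to 0.0917), which left 1 fall. Of 22 cell wall genes 11 fell and none rose, among them SCW10, a wall glucanase-like protein, at 11.45 and 11.70 against 13.08 and 13.21 (−1.57 ± 0.12), and the crosslinking enzyme gene CRH1 (−1.08 ± 0.09).

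Of 34 proteasome genes 18 rose and none fell, with a median of 0.26. The differences were small and close together, from 0.04 (RPT1) to 0.55 (RPN11), which read 12.99 and 12.96 with SMER1 + rapamycin, against 12.46 and 12.39 with rapamycin (0.55 ± 0.07, adjusted p = 0.000726). With differences of this size the count followed the processing: 31 after quantile normalization, and between 6 and 10 without 1 of the 4 arrays. Of 34 autophagy genes 14 rose and none fell, with a median of 0.29, led by the receptor genes ATG39, at 10.21 and 10.37 against 8.61 and 8.70 (1.64 ± 0.17), and ATG40 (1.00 ± 0.12). ATG1, the initiating kinase, rose by 0.93 ± 0.16, and 9 of the 34 rose without SMER1 + rapamycin replicate 2 or without rapamycin replicate 2.

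Whether adding SMER1 did the same with and without rapamycin was read against SMER1 minus DMSO, a difference between other arrays. Both differences were tested against the same spread, estimated over the groups with replicates. SMER1 alone changed 3352 genes against DMSO (61.5%), with 36.5% of all genes higher and 25% lower. Of these and the 2527 called with rapamycin, 2026 were called both times: 888 rose in both, 1020 fell in both, 7 rose with rapamycin and fell without, and 111 fell with rapamycin and rose without. Calls in the same direction were 75.5% of those made with rapamycin and 56.9% of those made without. Across 5449 genes the differences correlated at 0.80 (Pearson) and 0.77 (Spearman), a description of these 9 arrays. The scatter plot shows both differences rising together, with a narrower range when rapamycin was present. The 5th and 95th percentiles were −0.96 and 0.91 with rapamycin, against −1.21 and 1.58 without.

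**Figure D5:**
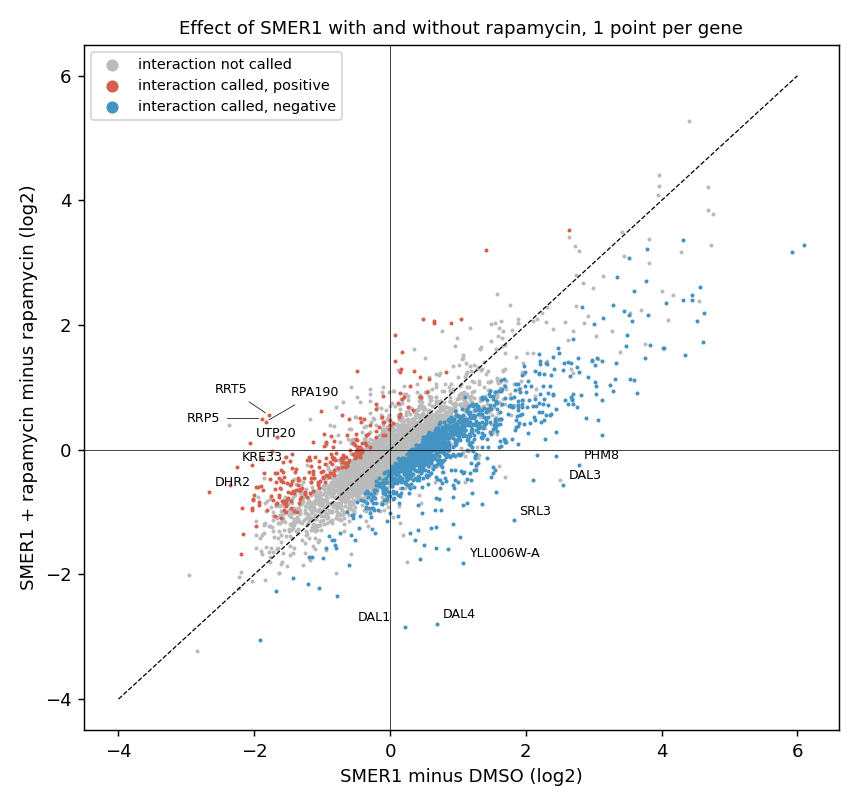
Each point is 1 of 5449 genes: the log2 difference of SMER1 + rapamycin minus rapamycin (vertical) against that of SMER1 minus DMSO (horizontal), with the line of equal differences dashed. Red and blue mark the 241 positive and 1160 negative called interactions; DAL1 and DAL4 lie far below the line and RRP5, RPA190 and RRT5 far above it.

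The interaction, the difference with rapamycin minus the difference without it, tests this directly. It was called for 1401 genes (25.7%), with 241 positive (4.42%) and 1160 negative (21.3%), and its median over all genes was −0.18. The balance of signs depended on scaling: positive calls were 17.2% of all calls on the deposited values, 23.7% with arrays centred on their medians (median of all genes −0.12) and 43.4% after quantile normalization (median −0.00). Each interaction was tested against 0, and none was corrected for the median of −0.18.

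The 3 most negative called interactions were of allantoin genes, and all 8 measured members had a called negative interaction under each of these 3 scalings. DAL4 read 8.82 and 8.52 with SMER1 + rapamycin, 11.46 and 11.46 with rapamycin, 7.73 and 7.87 with SMER1, and 7.17, 6.96 and 7.20 with DMSO. Its interaction was −3.48 (adjusted p = 6.33e-05), since SMER1 lowered it by 2.79 with rapamycin and raised it by 0.69 without. For DAL3 the interaction was −3.11, although its fall with rapamycin did not pass the test. Most of that value came from a higher level with SMER1 alone than with DMSO. For DAL1 the interaction was −3.06. DAL1 had not passed the test without rapamycin (0.22). PHM8, a nucleotide phosphatase gene, read 12.09 and 12 with SMER1 + rapamycin and 12.26 and 12.32 with rapamycin, against 11.31 and 11.18 with SMER1 and 8.41, 8.55 and 8.42 with DMSO (interaction −3.03, adjusted p = 3.94e-05). SRL3, a paralog of the Start inhibitor gene WHI5, had an interaction of −2.95, falling by 1.13 ± 0.06 with rapamycin and rising by 1.82 without. All 7 called interactions of the 10 sulfate genes were negative under the 3 scalings too: SUL2 rose by 1.24 with rapamycin and by 2.78 without it. Negative interactions were not confined to these lists. On the deposited values they were called for 20 of 24 general stress genes, with 1 positive. The median stress rise was 1.40 with rapamycin and 2.77 without. So were 6 of 7 trehalose, 11 of 11 vacuolar hydrolase and inhibitor, 23 of 34 proteasome and 18 of 22 cell wall genes, against 21.3% of all genes.

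Ribosome assembly genes had positive interactions, 17 of 46 in the processome and 19 of 63 for the large subunit, with none negative. After quantile normalization these were 20 and 29, while positive calls over all 5449 genes went from 241 to 562. UTP20 read 9.57 and 9.26 with SMER1 + rapamycin and 9.30 and 9.30 with rapamycin, against 10.19 and 9.99 with SMER1 and 12.39, 12.01 and 12.06 with DMSO (interaction 2.18, adjusted p = 0.00061). RRP5 (2.38), RPA190 (2.28), the helicase gene DHR2 (1.99) and the acetyltransferase gene KRE33 (1.99) had the same order, with DMSO highest, SMER1 next and both groups given rapamycin lowest. The Spearman correlation of the interaction with gene length was 0.49 across the processome genes and 0.43 across the large subunit genes, against 0.10 across all genes. RRT5, of no ribosome list, had an interaction of 2.35. By contrast, of 31 DNA replication genes none had a called interaction, and POL30 fell by 1.86 with rapamycin and by 1.52 without.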

How the data were processed

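RNA from each culture was extracted, checked on a Bioanalyzer, labelled as biotin cRNA and hybridised to 1-colour Affymetrix yeast arrays, per the labels' protocols. The authors deposited log2 signal per probe set. How these values were summarised and normalized is not given in the sources used here, so the scaling was varied. Gene names came from the platform annotation, updated through the RefSeq gene table (12 symbols changed), and 218 probe sets without a gene name were set apart. For the 47 genes with several probe sets the brightest was used. Probe sets shared with a similar transcript served 115 genes.

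From the log2 values, limma 3.58.1 in R 4.3.3 fitted 1 mean per group over all 13 arrays, with 5 residual degrees of freedom and moderated variances. The other groups, SMER2 to SMER5, had 1 array each. Benjamini-Hochberg adjustment ran over 5449 genes, and the threshold was 0.05. The number of arrays limits the precision.

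Genes are described by 78 lists. The members and lists were chosen with earlier results of these data known, and counts over lists are descriptions. Named genes are the 15 largest rises and falls called without overlap of the arrays, up to 5 called members of a list by size and 2 in the opposite direction, all members of lists of 15 or fewer, regulators and paralogs in the lists, and the 6 largest called interactions of each sign. RPL41A, RPT1 and CLN3, which end the range of their lists, and RSA1 and UTP10 were chosen after their values were seen. Alternatives were quantile normalization, centring on array medians, a floor of 5, leaving out the 25% dimmest genes, only the 4 arrays compared, an intensity trend, the mean of a gene's probe sets, the replicate number as a block, and leaving out each array.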

Additional observations from a re-analysis of the deposited data

Results flagged for a closer look

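By the limma test of the interaction against 0 on the deposited values, SMER1 had a different effect with rapamycin than without it for 1401 genes. The median interaction of all genes was −0.18, and the balance of signs depended on scaling. The 6 most positive were RRP5 (2.38), RRT5 (2.35), RPA190 (2.28), UTP20 (2.18), DHR2 (1.99) and KRE33 (1.99). All but RRT5 encode factors of ribosome assembly or RNA polymerase I. The 6 most negative were DAL4 (−3.48), DAL3 (−3.11), DAL1 (−3.06), PHM8 (−3.03), SRL3 (−2.95) and YLL006W-A (−2.90). YLL006W-A was dim, at 2.92 and 3.81 with SMER1 + rapamycin, 4.54 and 5.82 with rapamycin, 4.14 and 3.52 with SMER1 and 2.47, 2.58 and 3.18 with DMSO. Its adjusted p of the interaction ran from 0.0119 to 0.362 over the alternatives, highest with values below 5 raised to 5, and was 0.0597 without SMER1 replicate 1 and 0.0617 without SMER1 + rapamycin replicate 1.

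Probe sets without a gene name lay outside the comparison. Of 218, 102 were called between SMER1 + rapamycin and rapamycin (46.8%), 51 higher and 51 lower, against 46.4% of named genes. One of the probe sets without a name averaged 10.38 with SMER1 + rapamycin, against 6.196 with rapamycin, a difference of 4.19 (adjusted p = 1.33e-05).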

How the results depend on the processing

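The count of 2527 genes called between SMER1 + rapamycin and rapamycin ran from 1643 to 2606 on leaving out 1 array (607 to 1024 higher, 1036 to 1582 lower), lowest without SMER1 + rapamycin replicate 2. That setting shared 64.5% of the calls, quantile normalization 91.4%, and fitting only the 4 arrays 84.8%. Interactions ran from 816 to 1426 (118 to 269 positive, 698 to 1216 negative), SMER1 against DMSO from 2818 to 3280 and rapamycin against DMSO from 2675 to 3230. Quantile normalization gave 562 positive and 732 negative interactions, against 241 and 1160 on the deposited values. Among the named genes and the named interactions, no called direction reversed under any alternative. The other called genes were not checked for a reversal. With the replicate number as a block, 3585 genes were called between SMER1 + rapamycin and rapamycin, and 2377 interactions (517 positive, 1860 negative), and 107 of 127 ribosomal protein genes, against 64, were lower. Same-numbered arrays of these 2 groups deviated together (correlation 0.44), as did those of SMER1 (0.55 and 0.60). DMSO replicate 1 correlated with them at 0.43 to 0.55, and DMSO replicate 2 at 0.07 to 0.13. The labels state no pairing, and the 2 groups compared have 2 numbers each, so the numbers were not taken to pair the samples. A shared replicate effect was therefore not removed from the main counts. Signals near the top of the scale and values below 5, of which there were 1383, limit what differences the arrays could show.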

Other observations

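A few gene groups that the text above has not described are given beside the shares of all genes called, 18.1% higher and 28.2% lower. Of 17 genes of hexose transport and glucose sensing 6 rose and none fell. Of 15 aromatic amino acid genes 9 fell and none rose, and 5 fell on leaving out the one or the other SMER1 + rapamycin array. Of 54 mitochondrial ribosomal protein genes 15 rose and 1 fell. Their rises numbered 7 without SMER1 + rapamycin replicate 1, when 680 of all 5449 genes were called higher, 9 without replicate 2 and 8 without rapamycin replicate 1. PHO89, a sodium-coupled phosphate transporter, read 11.21 and 11.66 with SMER1 + rapamycin, against 9.65 and 9.55 with rapamycin, and rose by 1.84.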
